A study of Mus musculus with 10 samples.

Results

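Myelin genes are described here: Mbp, Mog, Mag, Mobp, Cnp, Cldn11, Mal, Opalin and Myrf, 9 genes chosen by name as genes of myelinating oligodendrocytes, out of 28871 genes in the deposited table of mouse hippocampus. All 9 were present in the table and all 9 passed the filter on low counts, which left 19093 genes for testing. The study compared Visudyne with vehicle in wild-type male C57BL/6J mice, 2 months old. The drug, verteporfin, is activated by light: it was injected into the cisterna magna and light of 689 nm was shone on the intact skull, a procedure meant to ablate the lymphatic vessels of the meninges. Vehicle mice received the same injection and light without the drug, and the procedure was repeated after 2 weeks in both groups. The whole hippocampus was taken a further 2 weeks after the last procedure, and total RNA of 5 Visudyne samples (numbered 3, 6, 9, 12 and 15) and 5 vehicle samples (1, 4, 7, 10 and 13) was sequenced. The labels do not say that each sample is a separate animal. The p-values therefore rest on the spread between these samples, which need not be the spread between animals.

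Oligodendrocytes wrap axons in layers of their own membrane. In the compact part of this sheath the cytoplasmic faces are held together by basic proteins, while the inner and outer rims keep cytoplasm and carry adhesion and surface proteins. The genes are switched on late in differentiation under the transcription factors SOX10 and MYRF. In the hippocampus myelin is sparse among the cell bodies and dense in the fibre bundles that border it, the alveus and the fimbria.

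The libraries held between 51165271 and 68895223 estimated counts. The total did not separate the groups: 59397500 ± 5669820 in Visudyne and 56585100 ± 6833210 in vehicle samples (SD, n = 5 each, exact two-sided permutation p = 0.516). The share of mitochondrial ribosomal RNA was 18.8% ± 0.956 in Visudyne and 20.3% ± 1.21 in vehicle samples (SD, n = 5 each, exact permutation p = 0.0635, adjusted p = 0.107 over 3 library measures). As a check of the tissue, Prox1, a gene of dentate granule cells, measured 90.0 to 117 CPM in Visudyne and 96.5 to 115 CPM in vehicle samples. CPM is the count divided by the library total in units of 1000000 counts, after TMM scaling.

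None of the 9 myelin genes passed the test between Visudyne and vehicle in either direction. In edgeR's quasi-likelihood test the share of all genes that passed was 0.0210% higher (4 genes) and 0% lower with Visudyne. No myelin gene had an unadjusted p under 0.05, against 1.70% of all genes (1.14% higher and 0.560% lower), and none passed in DESeq2 or limma voom. Each of the 9 had an edgeR adjusted p of 0.9999. The groups overlapped in all 9 genes; of all tested genes, 0.319% had the entire Visudyne group above the vehicle group and 0.115% had it below. Since whole tissue was sequenced, fewer oligodendrocytes and less RNA per oligodendrocyte cannot be told apart in any of these values.

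**Figure D1:**
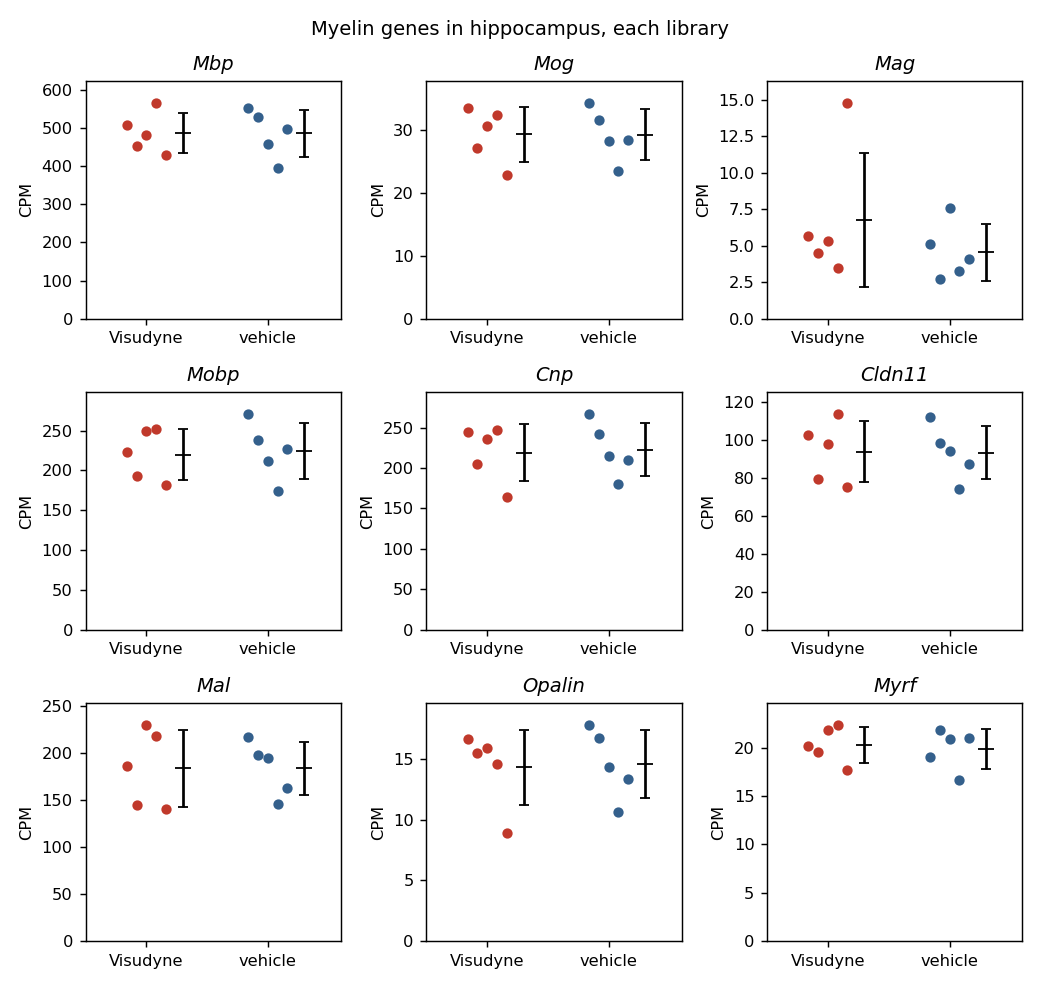
Each panel plots the CPM of a myelin gene (linear axis from 0) in 5 Visudyne samples (left, red) and 5 vehicle samples (right, blue), with mean ± SD in black. The groups overlap in every panel, and the Mag panel has a Visudyne sample at 14.8 CPM, far above the other Visudyne samples at 3.50 to 5.70 CPM.

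Among the genes of compact myelin, Mbp encodes myelin basic protein, which binds the cytoplasmic faces of the sheath to each other; the same gene gives rise to golli proteins, which occur in other cells too, and the gene-level counts merge both. Mbp measured 507, 452, 481, 566 and 428 CPM in Visudyne samples 3, 6, 9, 12 and 15, against 553, 528, 457, 396 and 498 CPM in vehicle samples 1, 4, 7, 10 and 13. Visudyne 12 was highest and vehicle 10 lowest of the 10, so that the vehicle range spanned nearly all of the Visudyne range. Its log2 fold change was 0.00 (SE 0.10), with a 95% interval from -0.21 to 0.21, or from 0.867-fold to 1.16-fold. Mbp (ENSMUSG00000041607) spans 82475146 to 82585637 of chromosome 18 on the plus strand (GRCm38, the assembly also called mm10, as are all positions here).

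Mobp encodes a second small basic protein of central myelin. It measured 223, 193, 249.8, 251.7 and 182 CPM in the Visudyne samples, in the same sample order, against 271, 238, 212, 175 and 226 CPM in the vehicle samples. Both the highest (vehicle 1) and the lowest (vehicle 10) values were from the vehicle group. Mobp had a log2 fold change of -0.03 (SE 0.12, 95% interval -0.29 to 0.23). Mobp (ENSMUSG00000032517) lies at 120149707 to 120181484 of chromosome 9, plus strand. Of its 6849 exonic bases it shares up to 79 with the annotated gene Gm38642 on the same strand. Within those shared bases the strand of a read does not tell the genes apart.

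Cldn11 encodes claudin-11, the protein of the tight junction strands that run through central myelin. It measured 103, 79.6, 97.6, 114 and 75.3 CPM in Visudyne samples, against 112, 98.5, 94.4, 74.0 and 87.2 CPM in vehicle samples. Visudyne 12 and vehicle 1 were highest and vehicle 10 and Visudyne 15 lowest, so the groups overlapped almost fully, with a log2 fold change of 0.01 (SE 0.13, 95% interval -0.26 to 0.28). The gene (ENSMUSG00000037625) has 1 annotated transcript and lies at 31149920 to 31164324 of chromosome 3, plus strand. Mal encodes a proteolipid of lipid rafts that is found in myelin and in some epithelia. Mal measured 186, 145, 229.8, 218 and 140.4 CPM in Visudyne samples, against 217, 197, 195, 146 and 163 CPM in vehicle samples, with a log2 fold change of 0.00 (SE 0.15, 95% interval -0.32 to 0.32). Visudyne 9 was highest and Visudyne 15 lowest. Mal (ENSMUSG00000027375) lies at 127633226 to 127656695 of chromosome 2, minus strand.

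Cnp and Mag encode proteins of the parts of the sheath that are not compacted. Cnp, a phosphodiesterase of cyclic nucleotides on the cytoplasmic side, measured 245, 204, 236, 247 and 164 CPM in Visudyne samples, against 267, 242, 214, 180.3 and 210.4 CPM in vehicle samples. The log2 fold change was -0.02 (SE 0.12, 95% interval -0.29 to 0.24), and Visudyne 15 and vehicle 10 were the lowest libraries of their groups. Cnp (ENSMUSG00000006782) lies at 100574904 to 100591729 of chromosome 11, plus strand. Its exons share up to 154 bases with those of Dnajc7 on the other strand, a gene at 76.4 CPM on average, and the strand setting of the authors' quantification is not given in the sources used here.

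Mag, the adhesion protein of the innermost membrane that faces the axon, had another pattern over the libraries than the other 8. It measured 5.70, 4.504, 5.30, 3.50 and 14.8 CPM in Visudyne samples, against 5.10, 2.69, 7.61, 3.24 and 4.10 CPM in vehicle samples. Visudyne 15, at or near the bottom in every other myelin gene, was highest in Mag, and its value rested on 850 counts where the other libraries had 139 to 383. The log2 fold change of 0.57 (SE 0.38, 95% interval -0.26 to 1.41) did not pass. It was 0.06 without Visudyne 15 and 0.83 without vehicle 7. Mag (ENSMUSG00000036634) lies at 30899176 to 30914873 of chromosome 7, minus strand. In GENCODE M21 it has 8 transcripts and shares no exonic bases with another gene. The annotation used in the authors' quantification is not given in the sources used here, so the quantification of Mag could not be checked.

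Mog and Opalin encode membrane proteins of the oligodendrocyte surface. Mog, the immunoglobulin-like protein of the outermost layer, measured 33.5, 27.1, 30.7, 32.4 and 22.8 CPM in Visudyne samples, against 34.4, 31.7, 28.2, 23.5 and 28.5 CPM in vehicle samples. Vehicle 1 was highest and Visudyne 15 lowest, and the log2 fold change was 0.00 (SE 0.11, 95% interval -0.25 to 0.25). Mog (ENSMUSG00000076439) lies at 37010743 to 37023398 of chromosome 17, minus strand. Opalin, a glycoprotein found on mature oligodendrocytes, measured 16.7, 15.5, 15.9, 14.6 and 8.92 CPM in Visudyne samples, against 17.8, 16.8, 14.3, 10.7 and 13.4 CPM in vehicle samples. Visudyne 15 stood below all other libraries, and the log2 fold change was -0.03 (SE 0.17, 95% interval -0.39 to 0.34). Opalin (ENSMUSG00000050121) lies at 41061710 to 41077113 of chromosome 19, minus strand.

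Myrf encodes the membrane-bound transcription factor that starts and maintains myelin gene expression. It measured 20.2, 19.5, 21.9, 22.4 and 17.7 CPM in Visudyne samples, against 19.1, 21.8, 20.9, 16.7 and 20.97 CPM in vehicle samples. This was the narrowest spread among the 9 genes, with a coefficient of variation of 9.19% in Visudyne and 10.4% in vehicle samples. The log2 fold change was 0.03 (SE 0.08, 95% interval -0.15 to 0.21). Myrf (ENSMUSG00000036098) lies at 10208272 to 10240748 of chromosome 19, minus strand.

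**Figure D2:**
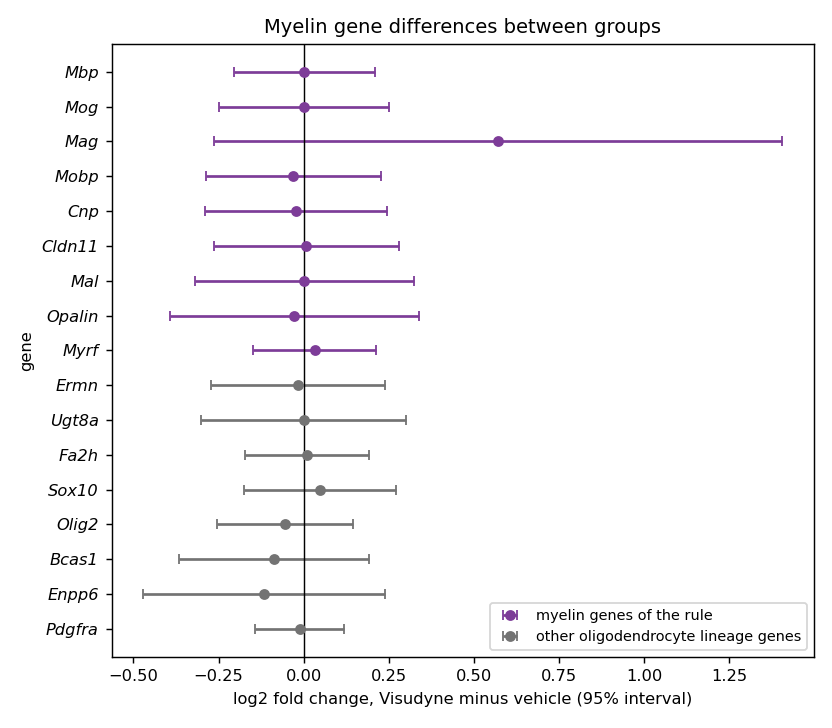
Log2 fold changes of Visudyne minus vehicle (horizontal axis) with 95% intervals from edgeR, for the 9 myelin genes (purple) and 8 other genes of the oligodendrocyte lineage (grey). All intervals include 0, and that of Mag, from -0.26 to 1.41, is the widest.

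The 95% intervals state how large a difference the samples could hide. For the 8 genes other than Mag the lower bounds lay between 0.761-fold (Opalin) and 0.903-fold (Myrf) and the upper bounds between 1.16-fold and 1.26-fold. For Mag they ran from 0.833-fold to 2.65-fold. The missing calls do not show that the levels were equal within these bounds.

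Per kilobase of exon (RPKM, from the union of annotated exons), the 9 genes covered a wide range of levels. Mal averaged 66.1 ± 14.7 RPKM in Visudyne and 66.1 ± 10.3 RPKM in vehicle samples (SD, n = 5 each, here and in the rest of the paragraph). Cnp averaged 60.2 ± 9.71 RPKM in Visudyne and 61.2 ± 9.07 RPKM in vehicle samples, and Mbp 57.5 ± 6.31 RPKM in Visudyne and 57.4 ± 7.32 RPKM in vehicle samples. Cldn11 averaged 50.1 ± 8.60 RPKM in Visudyne and 49.8 ± 7.48 RPKM in vehicle samples. The ranges of these 4 genes over the 10 libraries overlapped each other, although Mbp lay above Cldn11 in all 10 libraries and Mal above Cnp in 8. Mobp averaged 32.1 ± 4.66 RPKM in Visudyne and 32.8 ± 5.16 RPKM in vehicle samples, below Cldn11 in all 10 libraries. Mog averaged 17.2 ± 2.56 RPKM in Visudyne and 17.2 ± 2.39 RPKM in vehicle samples. Opalin averaged 4.86 ± 1.05 RPKM in Visudyne and 4.95 ± 0.962 RPKM in vehicle samples. Neither Mog nor Opalin overlapped with the gene next above or next below it in rank. Opalin did overlap with Mag: in Visudyne 15 Opalin had 3.03 RPKM and Mag 3.64 RPKM. Myrf averaged 2.38 ± 0.218 RPKM in Visudyne and 2.32 ± 0.241 RPKM in vehicle samples, above Mag in 9 of the 10 libraries. Mag averaged 1.66 ± 1.124 RPKM in Visudyne and 1.117 ± 0.476 RPKM in vehicle samples. With the longest transcript as the length, Mbp took the first place at 102 RPKM in Visudyne and 101 RPKM in vehicle samples, and Mag remained last. Other places changed too: averaged over the 10 libraries, Mobp then came after Mbp and Cnp at 67.6 RPKM, above Mal at 66.1 RPKM in 7 libraries and above Cldn11 at 49.99 RPKM in all 10, and the ranges of Opalin and Myrf overlapped.

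No difference between the groups passed, but the libraries varied, and 8 of the 9 genes varied together over them. From the lowest to the highest library the level differed 1.34-fold in Myrf, 1.43-fold in Mbp, 1.51-fold in Mog, 1.54-fold in Cldn11, 1.55-fold in Mobp, 1.63-fold in Cnp, 1.64-fold in Mal and 2.00-fold in Opalin. Visudyne 15 was among the 2 lowest libraries in all genes but Mag, and vehicle 10 in all genes but Mal. Vehicle 1 and Visudyne 12 were each among the 2 highest in 6. The median deviation of the 8 genes from their own means was -0.32 in Visudyne 15 and -0.30 in vehicle 10 on the log2 scale, and 0.18 in Visudyne 12 and 0.27 in vehicle 1. Both ends of this range therefore held a sample of each group.

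**Figure D3:**
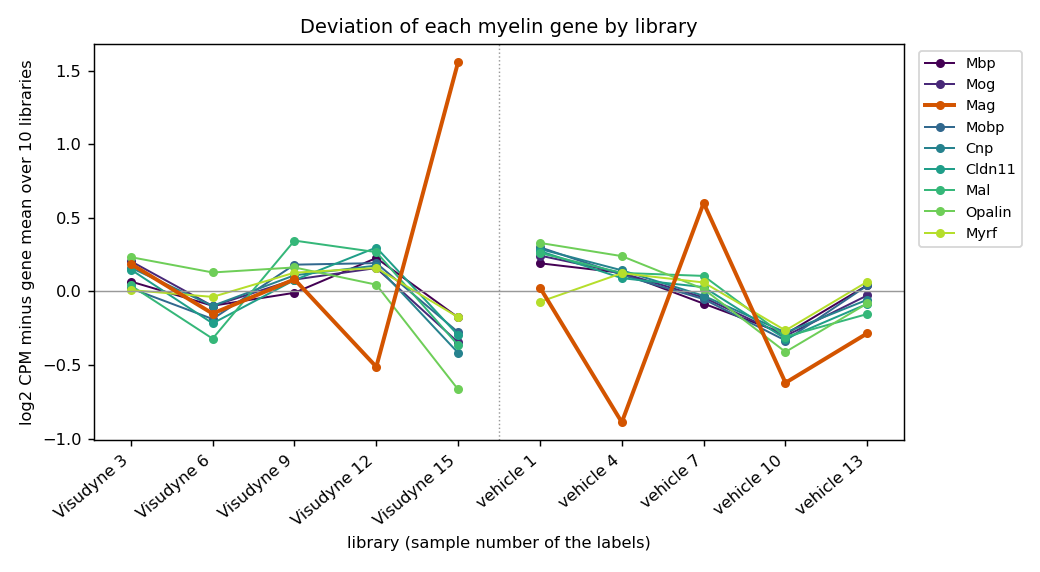
Log2 CPM of each myelin gene minus its mean over the 10 libraries (vertical axis), by library, with lines joining values of the same gene within a group. The 8 genes other than Mag lie below 0 in both Visudyne 15 and vehicle 10, while Mag lies 1.56 above its mean in Visudyne 15.

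Of the 36 pairs of myelin genes, the 28 without Mag all had positive correlations of log2 CPM over the 10 libraries. Pearson's r lay between 0.65 and 0.99 with a median of 0.87, and Spearman's rho between 0.31 and 0.98 with a median of 0.80. Mog and Cnp were the closest pair (r = 0.99, rho = 0.98; permutation p = 1e-05, the smallest that 100000 permutations can give, and 3e-05; adjusted p = 0.00018 and 0.00072 over the 36 pairs), and r stayed at 0.98 without the 2 libraries farthest from the median of Mog. The Pearson correlation had an adjusted permutation p under 0.05 in 27 of these 28 pairs, and the Spearman correlation in 19. Mag was set apart after the data were seen, and the share of such pairs among all genes was not computed. Over all other annotated genes of at least 3 log2 CPM on average, the median r with a member ran from -0.22 (Mag) to 0.35 (Cldn11). Subtracting the group means left the median r at 0.88, and it was 0.86 within the 5 Visudyne samples and 0.94 within the 5 vehicle samples. All genes of a library share its scaling, RNA and dissection, so that these values describe libraries rather than separate measurements.

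Several pairs with Myrf rested on 2 libraries. Without the 2 libraries farthest from the median of the first gene, r was 0.01 for Cnp with Myrf and -0.40 for Opalin with Myrf, against a median of 0.76 over the 28 pairs. Mag had negative correlations with all 8 others (r from -0.48 with Opalin to -0.26 with Mal, rho from -0.27 to -0.09), none with an adjusted permutation p under 0.05 (lowest 0.202). Within the Visudyne samples its r was -0.86 to -0.60, and within the vehicle samples 0.02 to 0.37. The values were thus negative within the Visudyne group, where sample 15 was highest in Mag, and not within the vehicle group. Without the 2 libraries farthest from the median of Mag, r was positive in the 6 pairs computed that way, from 0.23 with Mobp to 0.55 with Opalin. In the other 2 pairs, where the libraries farthest in Mbp or in Mog were left out, it was -0.69 with Mbp and -0.17 with Mog. The edgeR dispersion of Mag, 0.172, stood at percentile 93.9 of all tested genes, while those of the other 8 stood between percentile 41.7 (Myrf) and 67.2 (Opalin).

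**Figure D4:**
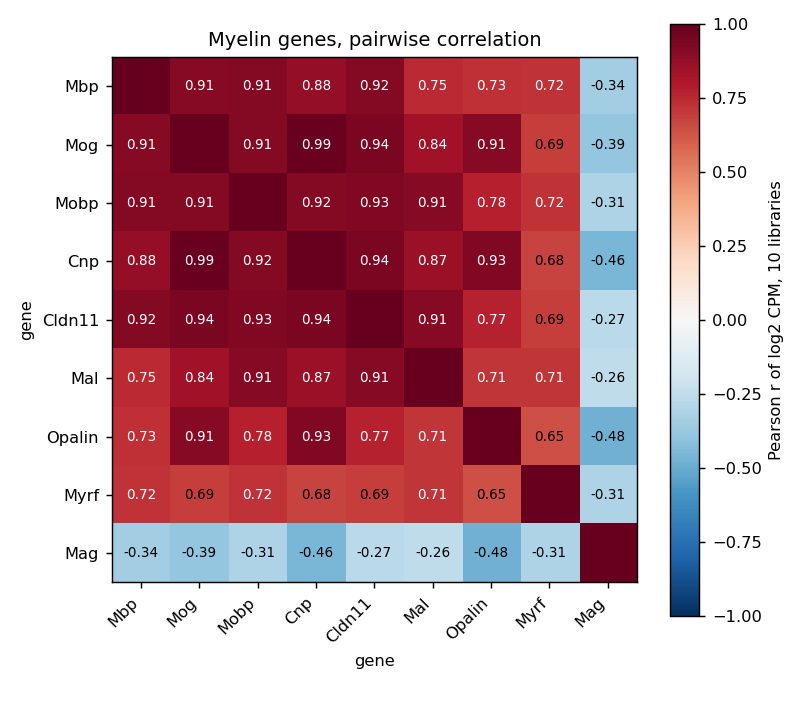
Pearson correlation of log2 CPM over the 10 libraries for each pair of myelin genes, with red for positive and blue for negative values. The 8 genes other than Mag form a block of values from 0.65 to 0.99, and the row and column of Mag hold values from -0.48 to -0.26.

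The promoters of 4 members are shown, chosen after their patterns were seen. Mog and Cnp moved most alike, Mobp belonged to the same block and Mag had another pattern over the libraries. RefSeq (GRCm38.p6) listed start sites for 7 of the 9 genes, all but Mbp and Myrf, and the 250 bases before the start were read; for the 4 genes shown this start lies at most 35 bases from the 5′ end of the GENCODE gene, and for Mag it is the nearest of 3 listed. Capitals mark matches on either strand to the SOX word ACAAAG or ACAATG and to the MYRF word CTGGCAC or CTGGTAC, none of which overlap in these windows. Each sequence runs 5′ to 3′ on the strand of the gene, for Mog chr17:37023399-37023648 (minus), Cnp chr11:100574689-100574938 (plus), Mobp chr9:120149492-120149741 (plus) and Mag chr7:30914864-30915113 (minus).
Mog: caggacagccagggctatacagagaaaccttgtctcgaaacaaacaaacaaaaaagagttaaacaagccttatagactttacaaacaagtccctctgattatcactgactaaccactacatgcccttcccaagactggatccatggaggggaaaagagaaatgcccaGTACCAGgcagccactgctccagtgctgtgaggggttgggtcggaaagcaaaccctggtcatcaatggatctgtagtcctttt
Cnp: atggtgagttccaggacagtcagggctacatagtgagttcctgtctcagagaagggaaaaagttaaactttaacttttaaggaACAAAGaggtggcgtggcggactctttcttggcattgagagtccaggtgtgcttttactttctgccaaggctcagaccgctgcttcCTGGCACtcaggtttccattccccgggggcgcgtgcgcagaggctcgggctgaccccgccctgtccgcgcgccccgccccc
Mobp: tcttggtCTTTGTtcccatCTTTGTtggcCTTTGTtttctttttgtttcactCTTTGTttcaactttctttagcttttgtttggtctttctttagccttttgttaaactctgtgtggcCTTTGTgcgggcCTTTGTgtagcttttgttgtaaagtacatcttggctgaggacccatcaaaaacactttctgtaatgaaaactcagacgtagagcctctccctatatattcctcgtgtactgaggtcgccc
Mag: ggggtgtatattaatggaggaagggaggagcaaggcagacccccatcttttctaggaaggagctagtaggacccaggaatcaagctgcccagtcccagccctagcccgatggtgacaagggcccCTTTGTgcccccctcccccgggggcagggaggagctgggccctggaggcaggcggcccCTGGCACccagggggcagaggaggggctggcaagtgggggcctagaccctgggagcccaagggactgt
A MYRF word stood in Mog with its first base 83 bases before the start, in Cnp at 81 bases and in Mag at 68 bases. Of the 7 genes with a window these 3 held a MYRF word, as did 5.93% of all 32851 listed windows. A SOX word stood in 4 of the 7, namely Mobp (6 matches), Cnp, Mag and Opalin, and in 25.2% of all windows. Mag and Cnp held both words. The relation of these words to the patterns over the libraries was not tested. A match of letters is not a binding site, and its absence from this window says nothing of the factor.

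Genes whose pattern over the 10 libraries was most like the mean log2 CPM of the 9 myelin genes were ranked among 9775 annotated genes of at least 3 log2 CPM on average. The 10 highest were Tmem88b (r = 0.93, rho = 0.85), Gjc3 (0.92, 0.84), Cd82 (0.92, 0.96), Arsk (0.91, 0.75), Plekhh1 (0.91, 0.89), Trf (0.91, 0.89), Gatm (0.90, 0.82), Apln (0.90, 0.95), Hhip (0.90, 0.90) and Bcar3 (0.90, 0.89). Without the 2 libraries farthest from the median of that mean, r ran from 0.65 (Plekhh1) to 0.88 (Gatm) in these 10. Gjc3 encodes a connexin of oligodendrocytes, and Trf encodes transferrin, an iron carrier that oligodendrocytes make. The 5 lowest were Usp35 (r = -0.85), Asxl1 (-0.85), Lmtk3 (-0.84), Mmp16 (-0.84) and Zfp974 (-0.82). The median r over all 9775 genes was 0.20.

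With the mean taken over the 8 genes other than Mag, a choice made after the data were seen, the order became Trf (r = 0.99), Evi2a (0.98), Arsg (0.97), Sema6d (0.97), Galnt6 (0.97), Gatm (0.96), Prkd3 (0.96), Cntn2 (0.96), Efhd1 (0.95) and Hhip (0.95). Trf measured 218 CPM in Visudyne and 212 CPM in vehicle samples on average, with a log2 fold change of 0.04 (SE 0.13). The lists give the rank only, as a description of these 10 libraries.

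Other structural genes of myelin and mature oligodendrocytes did not pass between the groups either. Of 37 tested, none passed in edgeR's test in either direction and none had an unadjusted p under 0.05, and their median log2 fold change was -0.02, beside 0.00 over all tested genes. Ermn, a cytoskeletal protein of the sheath, averaged 45.7 ± 7.73 CPM in Visudyne and 46.2 ± 6.01 CPM in vehicle samples. The 3 of smallest p were Carns1, carnosine synthase (log2 fold change -0.18, SE 0.08), Omg, the oligodendrocyte myelin glycoprotein (-0.11, SE 0.09), and Bin1, a membrane-bending protein (-0.05, SE 0.04).

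Enzymes of the lipids that make up most of the sheath did not pass either. Among 14 genes of galactolipid and sphingolipid metabolism the median log2 fold change was 0.01 with 9 positive, and none had an unadjusted p under 0.05. Of all 19093 tested genes 9754 were positive, and 1.70% had an unadjusted edgeR p under 0.05. Ugt8a, which makes galactosylceramide, averaged 47.5 ± 8.41 CPM in Visudyne and 47.4 ± 8.80 CPM in vehicle samples (log2 fold change 0.00, SE 0.14), and Fa2h, which hydroxylates its fatty acid, 13.4 ± 1.13 CPM in Visudyne and 13.3 ± 1.46 CPM in vehicle samples. The smallest p belonged to Galc, which degrades galactosylceramide (0.09, SE 0.06), Elovl7, a fatty acid elongase (-0.07, SE 0.10), and Arsa, which degrades sulfatide (0.04, SE 0.06). Among 20 genes of cholesterol synthesis and uptake none had an unadjusted p under 0.05, 10 log2 fold changes were positive and the median was 0.00. The mevalonate pathway enzymes Mvd and Mvk had log2 fold changes of -0.13 (SE 0.12) and -0.08 (SE 0.08).

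The lineage was also covered by stage. Of all tested genes, 1.70% had an unadjusted edgeR p under 0.05. Of 20 transcription regulators none passed, and 1 had an unadjusted p under 0.05: Tcf7l2, a factor of the Wnt pathway that acts as oligodendrocytes differentiate, at 2.57 ± 0.250 CPM in Visudyne and 2.10 ± 0.208 CPM in vehicle samples (log2 fold change 0.29, SE 0.11, edgeR adjusted p = 0.9999). Sox10 (20.1 ± 2.00 CPM in Visudyne, 19.5 ± 2.89 CPM in vehicle samples), Olig2 (12.9 ± 1.56 CPM in Visudyne, 13.4 ± 1.32 CPM in vehicle samples), Zfp536 (-0.08, SE 0.04) and the chromatin remodeller Chd7 (0.10, SE 0.07) did not. Of 15 genes of newly formed oligodendrocytes none passed, and 1 had an unadjusted p under 0.05: the small GTPase Rras2, at 19.3 ± 1.06 CPM in Visudyne and 21.6 ± 1.39 CPM in vehicle samples (log2 fold change -0.16, SE 0.06, edgeR adjusted p = 0.9999). Bcas1 (-0.09, SE 0.13), Enpp6 (-0.12, SE 0.16), the receptor Gpr17 (-0.07, SE 0.06) and the growth factor Bmp4 (0.30, SE 0.24) did not.

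Of 13 tested precursor genes none passed, none had an unadjusted p under 0.05 and 10 were positive (median log2 fold change 0.01). Over all 19093 tested genes 9754 were positive, and 1.70% had an unadjusted edgeR p under 0.05. Pdgfra, the growth factor receptor of precursors, averaged 54.8 ± 3.08 CPM in Visudyne and 55.3 ± 4.18 CPM in vehicle samples, and Cspg4, the NG2 proteoglycan, 21.4 ± 1.89 CPM in Visudyne and 19.5 ± 0.922 CPM in vehicle samples (log2 fold change 0.14, SE 0.07). Emid1 had -0.16 (SE 0.11) and Xylt1, which starts proteoglycan chains, 0.06 (SE 0.05). Of 13 axonal genes of the node of Ranvier and its flanks none passed or had an unadjusted p under 0.05 (median log2 fold change 0.00). The potassium channel genes Kcnab2 and Kcna1 had log2 fold changes of -0.08 (SE 0.05) and -0.05 (SE 0.05). Of 12 genes that reactive oligodendrocytes raise in mouse models of disease none passed, and C4b, a complement gene, was the 1 with an unadjusted p under 0.05 (42.2 ± 3.88 CPM in Visudyne and 36.8 ± 3.80 CPM in vehicle samples, log2 fold change 0.20, SE 0.08, edgeR adjusted p = 0.9999). Cdkn1a and H2-K1 had 0.22 (SE 0.16) and 0.08 (SE 0.09). Tcf7l2 also stands in the thalamus list, and astrocytes and microglia also express several genes of the reactive list.

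The lists differed in how far their genes followed the 8 myelin genes from library to library. The median r with the mean log2 CPM of those 8 was 0.81 for the 37 other myelin genes. Of these 37, 19 had r above 0.8, as did 291 of all 19093 tested genes and 2.15% of 9775 genes of at least 3 log2 CPM on average. The median was 0.71 for the 14 lipid enzymes, 0.63 for cholesterol synthesis, 0.54 for the reactive list, 0.32 for newly formed oligodendrocytes and 0.23 for the regulators. For the 13 precursor genes it was -0.02, and over all tested genes 0.04. Over the 9775 genes of at least 3 log2 CPM on average it was 0.29, near the values of the regulators and the newly formed list and above that of the precursors. Within the newly formed list the values ran from -0.76 to 0.92, the highest being Bcas1, a gene that mature cells keep expressing. Sox10 had 0.65, Olig2 0.79 and Pdgfra 0.30. These differences between lists were not tested.

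**Figure D5:**
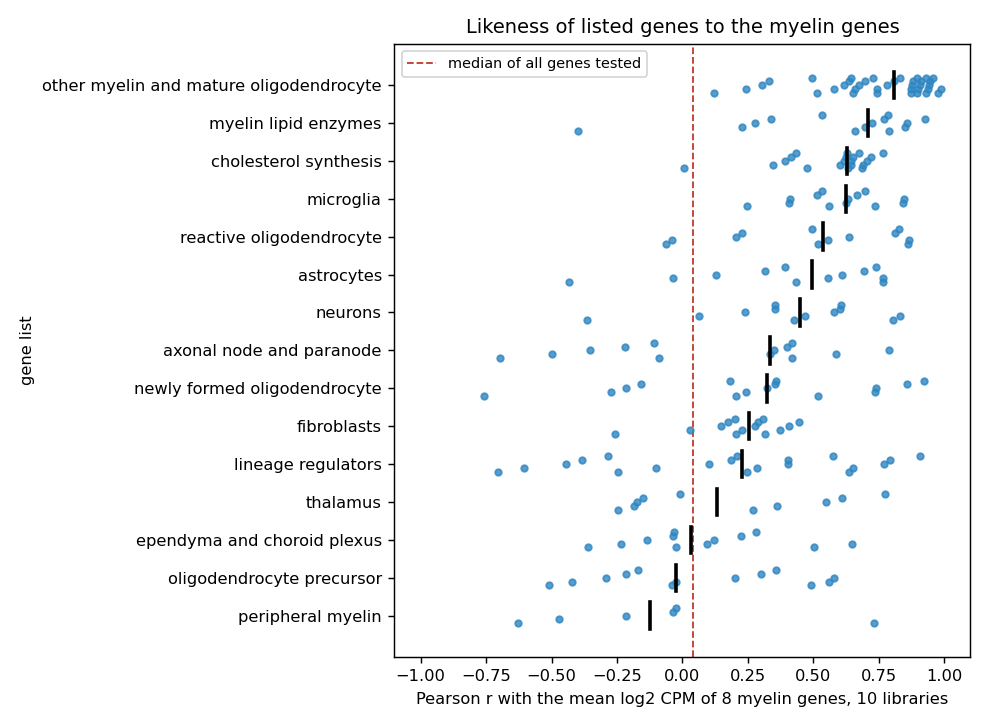
Each point is a gene, placed by its Pearson correlation with the mean log2 CPM of the 8 myelin genes other than Mag over the 10 libraries (horizontal axis) and by gene list (rows). Black bars are list medians, from 0.81 for other myelin genes to -0.13 for peripheral myelin, and the dashed line is the median of all tested genes, 0.04.

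Markers of other cells moved with the myelin genes to different degrees. The median r was 0.62 for 13 microglia genes, 0.49 for 12 astrocyte genes, 0.45 for 12 neuronal genes, 0.25 for 14 fibroblast genes, 0.13 for 10 thalamus genes, 0.03 for 12 genes of ependyma and choroid plexus and -0.13 for 6 genes of peripheral myelin. Visudyne 15, low in myelin genes, also had the lowest summed level of the neuronal list, 5444 CPM against 5689 to 6340 CPM in the other Visudyne and 5842 to 6288 CPM in the vehicle samples. Vehicle 10 did not: it had 6218 CPM. The summed astrocyte level was also lowest in Visudyne 15, at 4657 CPM, and 5014 CPM in vehicle 10. By mean log2 CPM, where each gene weighs the same, the astrocyte list was lowest in vehicle 13 (6.920). Vehicle 4 had 6.940 and Visudyne 15 had 6.945. The part of these cells in the myelin values was not tested.

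Pmp2, a lipid-binding protein of peripheral myelin, was near 0, with 14 counts in all 10 libraries together, and was not tested. The 6 tested genes of the peripheral myelin list together measured 78.4 to 83.7 CPM in Visudyne and 79.8 to 81.5 CPM in vehicle samples. Among thalamus genes, Prkcd measured 30.6 CPM in Visudyne 12, the sample with the most Mbp, against 11.8 to 14.6 CPM in the other Visudyne and 13.8 to 16.3 CPM in the vehicle samples, while Gbx2 had 5 counts in all. The choroid plexus gene Ttr stood at 179 CPM in vehicle 7, where the 8 myelin genes other than Mag lay near their means, against 5.13 to 27.2 CPM in Visudyne and 4.48 to 16.03 CPM in the other vehicle samples. The part of neighbouring tissue in the spread of myelin genes was not tested. Fibroblast genes were the exception between the groups, but this list was chosen with earlier results of these data known, so its count is a description. In it 14 of 14 genes had a positive log2 fold change (median 0.43), against 9754 of all 19093 tested genes. The collagen gene Col1a1 was the 1 that passed (19.0 ± 2.47 CPM in Visudyne and 8.42 ± 2.30 CPM in vehicle samples, edgeR adjusted p = 0.0485). This call was lost without Visudyne 3, without Visudyne 6 and without vehicle 7, where no gene of the table passed. Without Visudyne 9, 12 or 15 or vehicle 10 or 13 only 1 gene passed as higher. With upper-quartile scaling or without mitochondrial genes 2 did. Whether Col1a1 was among them is not reported here. Of the 14 fibroblast genes 8 had an unadjusted edgeR p under 0.05, against 1.70% of all tested genes. In 5 the entire Visudyne group lay above the vehicle group, against 0.319% of all tested genes. The summed level of the fibroblast genes was 366 to 676 CPM in Visudyne and 214 to 571 CPM in vehicle samples. Their mean log2 CPM did not overlap, at 3.401 to 3.810 in Visudyne and 2.217 to 3.398 in vehicle samples. In the other lists of cell type markers none passed.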

How the data were processed

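Hippocampal RNA of 10 samples was measured. The deposited file holds estimated counts for each Ensembl gene; FastQC and Salmon are named with mm10 in the submitters' processing notes. Libraries were prepared with a kit that keeps strand, per the labels' protocols. No source used here gives the tool versions, the annotation or the strand setting. All values were whole, so rounding changed none. Symbols, positions and lengths came from GENCODE M21 (28564 of 28871 identifiers matched, 307 did not). The labels name no batch.

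The test was edgeR's quasi-likelihood test (edgeR 4.0.16, R 4.3.3) with the default low-count filter (19093 genes), TMM scaling, no covariate and Benjamini-Hochberg adjustment over all tested genes at 0.05. The procedure was tested on simulated data with genes changed by known folds. It called 26% of genes changed 1.25-fold, 54% of those changed 1.5-fold, 72.3% at 2-fold and 81.25% at 3-fold. Of its calls 6.61% were false. SEs come from the F statistics, and log2 CPM uses a prior count of 2. Correlation p-values come from 100000 permutations, those of library measures from all 252 assignments. Alternatives were limma 3.58.1, DESeq2 1.42.0, other scalings and filters, sample number as covariate and omitted samples. The members and gene lists were chosen with earlier results of these data known. Named are the 9 members, 10 fixed lineage genes, the 3 of smallest p of each lineage list and the 10 most and 5 least similar genes; others were chosen after their values were seen. Some of these genes are not reported here. No sample was left out.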

Additional observations from a re-analysis of the deposited data

Results flagged for a closer look

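Each of 18 genes, the 9 myelin genes and 9 other genes of the lineage, was checked for a sample far from the others in both groups, 36 groups of 5 in all, of which chance alone flags about 1 in 20. In 2 of them the gap between the end sample and its nearest neighbour, divided by the range of the group, passed Dixon's critical value of 0.71 for 5 samples. Mag in Visudyne 15 stood at 14.8 CPM, with a gap of 0.805 of the Visudyne range. Opalin in Visudyne 15 stood at 8.92 CPM at the lower end, with a gap of 0.738 of the range. Both flags fell on the same sample, in opposite directions.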

How the results depend on the processing

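No myelin gene and no other gene of the 8 oligodendrocyte and myelin lists passed under any of the 20 alternatives, and the lowest adjusted p of a member was 0.946. No paired analysis was run, because the groups share no sample number and no label says which samples belong together. The log2 fold changes lay so close to 0 that 45 of 180 changed sign. Without mitochondrial genes Mog had -0.000265 and Mal -0.000492, and by limma voom Mog had -0.00361 and Mal -0.0132. The sample number as covariate gave 0.0143 for Mobp, 0.0448 for Cnp and 0.0733 for Opalin, and quality weights in voom gave 0.0627 for Mobp, 0.0605 for Cnp and 0.0964 for Opalin. Without Visudyne 15 and vehicle 10 together, a choice made after the data were seen, Mbp had -0.0261, Mag -0.0400, Cldn11 -0.00019 and Opalin 0.00425. Leaving out each sample in turn gave -0.0612 to 0.052 for Mbp, -0.0644 to 0.0747 for Mog, 0.0596 to 0.831 for Mag, -0.105 to 0.0473 for Mobp, -0.0878 to 0.0611 for Cnp, -0.0664 to 0.0827 for Cldn11, -0.0921 to 0.0803 for Mal, -0.118 to 0.0986 for Opalin and -0.022 to 0.0733 for Myrf. The median correlation between members was 0.76, 0.87 without Mag (added after the data were seen), and 0.70 to 0.86 leaving out each sample.

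With the longest transcript as length, RPKM was 102 in Visudyne and 101 in vehicle samples for Mbp, 67.0 in Visudyne and 68.3 in vehicle samples for Mobp, 75.5 in Visudyne and 76.7 in vehicle samples for Cnp, 3.58 in Visudyne and 3.50 in vehicle samples for Myrf, and 2.78 in Visudyne and 1.87 in vehicle samples for Mag. The 4 higher genes over the whole table became 2 with upper-quartile factors or without mitochondrial genes, 19 with the sample number, 18 with DESeq2, 13 with quality weights in voom, 1 without Visudyne 15 and vehicle 10, and 0 to 4 leaving out each sample: 0 without Visudyne 3, Visudyne 6 or vehicle 7, and 1 without Visudyne 9, 12 or 15 or vehicle 10 or 13. Lower genes numbered 0, and 1 without vehicle 1. The causes of these shifts were not tested. Mag had counts of 139 to 850 per library, with a coefficient of variation of 67.7% in Visudyne and 42.6% in vehicle samples. Opalin, at 512 to 1116 counts, had 21.7% in Visudyne and 19.4% in vehicle samples. The source of the spread of Mag was not tested.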

Other observations

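The genes most like Mag over the 10 libraries were not listed myelin genes. They were Stxbp4 (r = 0.88), Mettl16 (0.88), Mpdz (0.86), Pxk (0.83) and Acad9 (0.82), and without the 2 libraries farthest from the median of Mag these values were 0.37, 0.60, 0.31, 0.70 and 0.40. Only 0.0716% of 9783 genes had r above 0.8 with Mag, against 4.29% of 9782 genes with Cnp, 3.52% with Mog and 1.55% with Mbp. Myrf resembled Mag in this respect, also at 0.0716%, and the genes most like Myrf were Cdk19 (0.94), Fbxo7 (0.89) and Myo1d (0.88). Without the 2 libraries farthest from the median of Myrf these values were 0.78, 0.83 and 0.34. These are ranks over 10 libraries, given as a description.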
